A study of Drosophila simulans with 22 samples.

Results

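A group of 418 listed promoters of Drosophila simulans embryos carried most of their signal in the last 3 h of the series, at 19-22 h after egg laying. They are transcription start site clusters (TSCs), peaks of the first bases of capped transcripts. The list repeats a TSC where it is assigned to more than 1 gene, and the 418 entries lie at 414 distinct positions, since 4 TSCs appear under 2 gene numbers each with identical values. They were chosen by their measured values: a maximum of at least 10 RPM (reads scaled to the same total in every sample) and more than 50% of the RPM summed over the 22 hourly samples in the samples at 19-20 h, 20-21 h and 21-22 h. The 418 entries, called TSCs below, are 1.65% of the 25410 TSCs of the series and 3.67% of the 11405 TSCs that reached 10 RPM in some sample, counted in the same way (25133 and 11266 distinct positions). Hour profiles below are therefore a description of TSCs selected on those profiles, and no test is attached to them.

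The start sites were mapped with RAMPAGE, a method that enriches full-length 5′ cDNA ends before sequencing. Whole embryos of the w[501] strain were laid in population cages over 1 h each and aged to 22 stages from 0-1 h to 21-22 h. The authors state that they used the reference genome strain of each species. Each hour was 1 sample with no replicate, so the only errors available are counting error and the scatter of hours around a smooth curve. Per the labels, every sample received a barcode at reverse transcription, and all were then pooled and made into a single library. No treatment or mutant was included. A whole embryo mixes all its tissues, so a higher value may come from more cells of a type or from more RNA per cell, and these cannot be told apart.

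The last hours before hatching are when the larva is completed. The epidermis lays down and hardens the chitinous cuticle, the tracheae fill with air, muscles begin to contract, synapses mature and the gut acquires the enzymes it will need for feeding, so that many terminal differentiation genes are switched on. Promoters of Drosophila also differ in shape: in narrow promoters transcription starts within a few bases, in broad ones over a wide stretch, and narrow promoters are more common among genes with tissue-restricted or regulated expression. The gene numbers of the TSC list are not paired with gene names in the tables used here, so TSCs are identified by position on the FlyBase r1.4 assembly and strand, and no function is given to a single TSC.

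The shallowest sample, at 12-13 h, had 322564 reads and the deepest, at 9-10 h, had 17206157. The last 3 samples held 1158777, 2453220 and 2846508 reads, so that 1 read was worth 0.863, 0.408 and 0.351 RPM. From 17-18 h on, the 10 strongest TSCs of each sample took between 31.0% and 39.6% of its reads, against 9.31% at 10-11 h, and RPM in these late samples shares the remainder among all other TSCs. Whether duplicate reads were removed is not given in the sources used here. Intervals of RPM and of shares of reads given below cover counting error of reads only. Intervals of shares or medians over TSCs are computed from the number of TSCs. They treat each TSC as an independent draw and hold no error of reads or of embryos.

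The signal of the group rose from under 0.1% of all reads in the first 4 h to almost 10% in the last, and the rise was spread over several hours before 19 h. Summed over the 418 TSCs, the share of all reads was 0.0434% at 1-2 h, 1.03% at 15-16 h and 4.52% at 18-19 h. It reached 7.12% at 19-20 h (95% Wilson interval 7.07 to 7.17%), 9.52% at 20-21 h (9.48 to 9.56%) and 9.72% at 21-22 h (9.68 to 9.75%). The increase per hour thus became smaller over the last step. The median TSC of the group stood at 0.524 RPM at 11-12 h, 3.93 RPM at 15-16 h, 9.81 RPM at 17-18 h, 19.3 RPM at 18-19 h and then 39.1 RPM at 20-21 h.

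**Figure D1:**
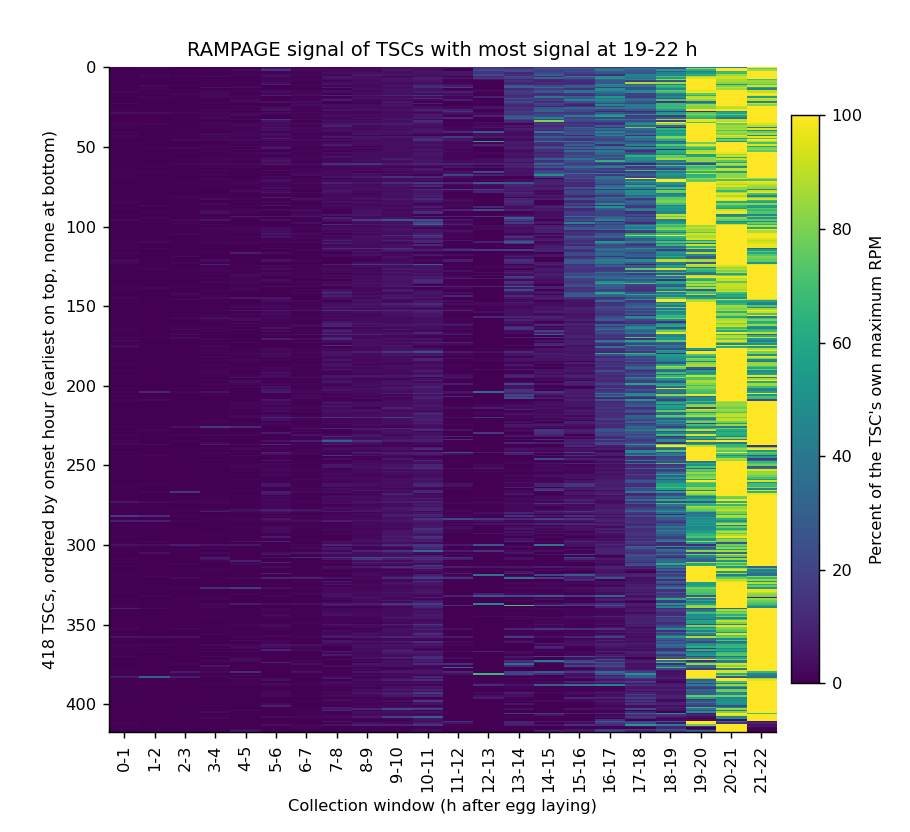
Each row is 1 of the 418 TSCs and each column 1 hourly sample, coloured by RPM as a percent of that TSC's own maximum; rows are ordered by onset hour, with the 7 TSCs that had no sustained onset at the bottom. Signal fills the last 3 columns by the choice of TSCs, onset steps from 11-12 h to 21-22 h down the plot, and a faint band at 7-11 h ends at 11-12 h.

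Onset was taken as the first hour from which a TSC stayed at or above 10% of its own maximum to the end of the series. It fell at a median of 16-17 h, with quartiles at 15-16 h and 17-18 h. The hours from 15-16 h to 18-19 h held 309 onsets, 73.9% of the group, with 76, 92, 76 and 65 TSCs in turn. Before 19 h, 379 TSCs (90.7%) had begun, and 8 had begun before 13 h. An onset before 13 h required at least 10% of the maximum at 12-13 h, the shallowest sample. There 1 read was worth 3.1 RPM, and 289 TSCs of the group had 0 reads, so no onset before 13 h could be assigned to them. The count of 8 is therefore limited by the depth of that sample. From 19 h on, 32 TSCs began, and 7 had no sustained onset because their 21-22 h value was under 10% of an earlier maximum. The quartiles of onset thus lay 2 to 4 h ahead of the window that selected these promoters.

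The climb from onset to high activity took a median of 3 h. Sustained signal of at least 50% of the maximum began at a median of 19-20 h (quartiles 18-19 h and 20-21 h). The lag from onset to this level had quartiles of 2 and 4 h over the 368 TSCs that reached it and kept it, and it was at least 4 h for 106 of them. The other 50 TSCs were under 50% of their maximum again at 21-22 h.

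**Figure D2:**
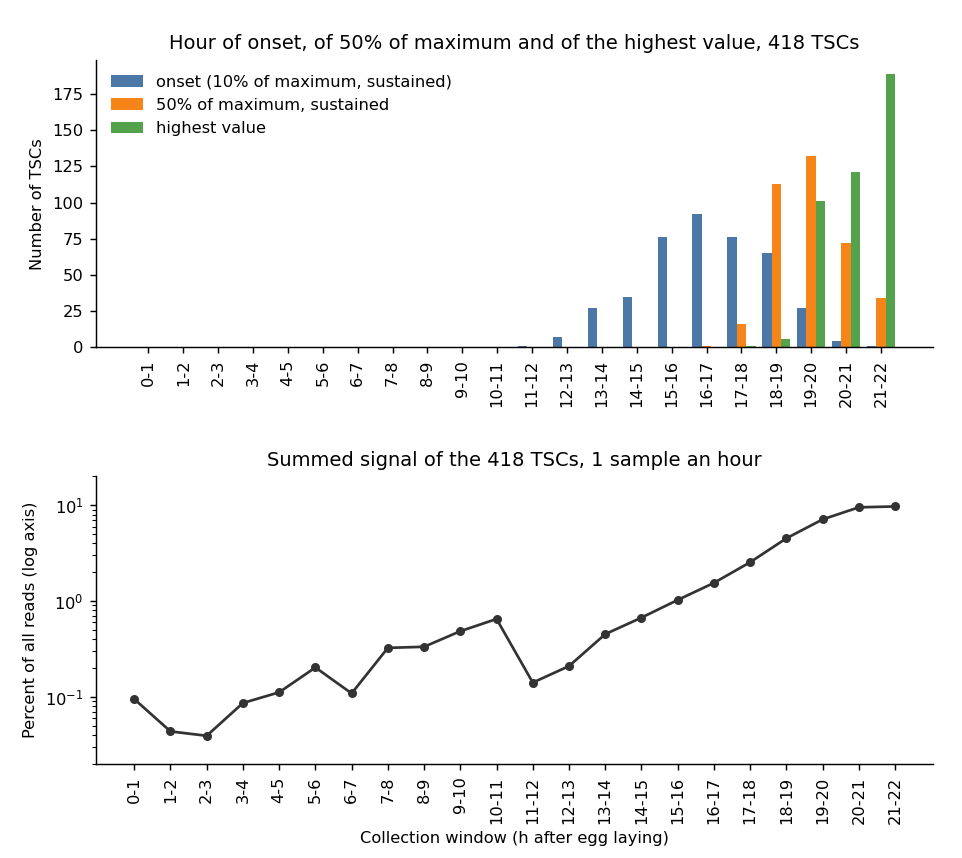
Upper panel, number of the 418 TSCs by hour of onset (10% of maximum, sustained), of sustained 50% of maximum, and of the highest value; lower panel, summed reads of the 418 TSCs as a percent of all reads in each sample, on a log axis with 1 sample an hour. Onsets peak at 16-17 h with 92 TSCs and highest values at 21-22 h with 189, and the summed share falls from 0.649% to 0.140% between 10-11 h and 11-12 h before its final rise.

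The earliest onset among TSCs that reached 100 RPM was at 2L:2763171-2763204 on the plus strand. This TSC held 8.44 RPM at 10-11 h, 13.6 RPM at 11-12 h, 21.2 RPM at 17-18 h and then 53.4 RPM at 20-21 h before it stood at 125.1 RPM at 21-22 h. A slow climb with a steep last step was its pattern. The TSC at 2R:9531826-9531851 on the plus strand began at 12-13 h and climbed from 46.5 RPM there to 81.6 RPM at 16-17 h, 136.4 RPM at 19-20 h and then 308.8 RPM at 21-22 h. Another onset at 12-13 h, at 2L:12227246-12227303 on the minus strand, went from 24.8 RPM to 17.7 RPM at 13-14 h. It then read 40.7 RPM at 16-17 h and 162.3 RPM at 21-22 h. Both onsets at 12-13 h rest on few reads, since 1 read was worth 3.1 RPM there. These 3 early starters were all highest in the last sample.

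The latest onsets among TSCs of that strength came at 19-20 h, in 9 TSCs. In the last sample 8 of them were above their 20-21 h value beyond counting error, and in the other, with a ratio of 0.856, the intervals overlapped. A late onset and a late rise are read from 1 profile, so this count only describes these TSCs. No share over all TSCs was computed for it. The 9 include the strongest TSC, described below, which was placed here by its single value of 59.99 RPM at 18-19 h. The 3 described next were picked as those with the highest ratios. At 3L:14375672-14375699 on the minus strand, signal was at most 13.1 RPM up to 18-19 h and then 34.5, 70.5 and 212.5 RPM in the last 3 samples. It roughly tripled in the last hour, with a ratio of 3.01 between 21-22 h and 20-21 h. The TSC at 2R:18201447-18201467 on the plus strand ran from 37.9 RPM at 18-19 h to 132 RPM, 254 RPM and 631.3 RPM. The last of them, at 2R:16701994-16702002 on the minus strand, ran from 7.59 RPM to 32.8, 53.0 and 116.3 RPM.

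At 21-22 h the group was divided between TSCs still rising, TSCs at a plateau and TSCs already lower. The highest of the 22 values fell at 21-22 h for 189 TSCs (45.2%, 40.5 to 50.0%), at 20-21 h for 121, at 19-20 h for 101, at 18-19 h for 6 and at 17-18 h for 1. Over all TSCs that reached 10 RPM, 3.59% were highest at 21-22 h, a share that cannot be read against the group's because the group was selected on the same samples. Values at 21-22 h lay above those at 20-21 h with non-overlapping 95% Wilson intervals for 83 TSCs (19.9%, 16.3 to 23.95%), where the share among all TSCs was 5.20%. They lay below for 67 TSCs (16.0%, 12.8 to 19.9%), where the share among all TSCs was 7.11%. The group was selected for high values in these samples, so neither its rising nor its falling share can be read against that of all TSCs. For the remaining 268 TSCs the intervals overlapped, and a further rise or fall was not detectable at this depth.

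The number of TSCs called rising depended on the reads behind them. Of the 135 TSCs that reached 100 RPM, 37.0% were above 20-21 h in the last sample beyond counting error, and with all samples thinned to the 322564 reads of the shallowest the share over the group was 5.26%. Shares over all TSCs were not computed at that strength or depth. With the reads scaled by trimmed mean of M values (TMM) factors in place of totals, 27.5% rose and 57.9% were highest at 21-22 h, and with DESeq2 size factors the shares were 20.1% and 44.98%. Over all TSCs of at least 10 RPM under the same scaling, 6.7% with TMM and 5.4% with DESeq2 were highest at 21-22 h. Their rising shares were not computed. Relative to totals, TMM placed the 20-21 h and 21-22 h samples at -0.37 and -0.46 and DESeq2 at -0.57 and -0.58 on the log2 scale.

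Over the group the step into the last hour was smaller than the step before it. The ratio of 21-22 h to 20-21 h had a median of 1.03 (quartiles 0.797 and 1.29), and the ratio of 20-21 h to 19-20 h a median of 1.18 (quartiles 0.910 and 1.55). All TSCs that reached 10 RPM had medians of 0.995 and 0.969 for these ratios. Between 19-20 h and 20-21 h, 100 TSCs rose beyond counting error and 16 fell. Both steps were upward beyond counting error for 33 TSCs, the first upward and the second downward for 25, and both downward for 7. These step counts were not made over all TSCs, and the group was selected on these samples, so they only describe it. The last ratio was at least 2 for 34 TSCs and at most 0.5 for 30.

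**Figure D3:**
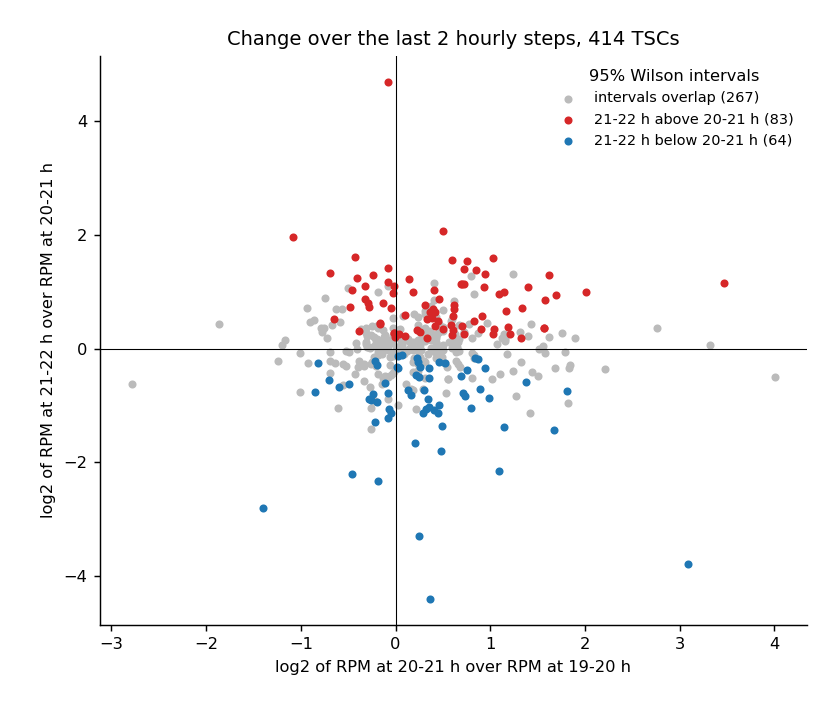
Each point is 1 of the 414 TSCs with reads in all of the last 3 samples (4 TSCs with 0 reads in one of them are left out): log2 ratio of 20-21 h to 19-20 h on the x axis and of 21-22 h to 20-21 h on the y axis. Red marks the 83 TSCs above 20-21 h beyond counting error in the last sample, blue 64 of the 67 below, and grey the 267 plotted with overlapping intervals; red points occur on both sides of the vertical line.

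The hour of the highest value was tabulated by onset. Of the 180 TSCs with onset at 17-18 h or later or with none, 60% were highest at 21-22 h, against 29.2% of the 168 with onset at 15-16 h or 16-17 h. The 70 that began before 15 h stood between these, with 45.7%. A late onset and a late highest hour are read from 1 profile, so these shares are tied by how they are computed, and their difference was not tested.

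The strongest TSC, at 3L:5532672-5532802 on the plus strand, reached 5098 RPM at 21-22 h. It held 505.1 RPM at 15-16 h, 700.2 RPM at 16-17 h and then 935.5 RPM at 17-18 h, then 59.99 RPM at 18-19 h, and 2034 and 3623 RPM in the next samples. The single value at 18-19 h placed its onset at 19-20 h. Such a fall between 17-18 h and 18-19 h beyond counting error was seen in 5 of the 418 TSCs, 4 of which reached 100 RPM. The share over all TSCs was not computed.

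The TSC ranked second, at 2L:4806043-4806125 on the minus strand (gene number FBgn0194075), turned down in the last hour. Its values were 547.8 RPM at 17-18 h, 1111 RPM at 18-19 h, 1823 RPM at 19-20 h, 4735 RPM at 20-21 h and then 3149 RPM at 21-22 h. In contrast, the next in rank, at 2L:14373093-14373182 on the plus strand, rose most steeply at the end among the 12 strongest, from 948.4 RPM at 19-20 h to 1604 RPM and then 4669 RPM, a last ratio of 2.91. It also held 359.8 RPM at 0-1 h and then 112 RPM at 1-2 h, before falling to at most 93.96 RPM between 2-3 h and 8-9 h. Signal at 0-2 h made up 4.90% of the summed RPM of this TSC. Such signal was rare in the group: its share was over 5% in 3 of the 418 TSCs, all of them others.

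A broader course was seen at 3R:10459859-10460057 on the plus strand. It began at 13-14 h with 643.6 RPM and climbed through 1568 RPM at 15-16 h and then 3259 RPM at 18-19 h to 4106, 4294 and 3964 RPM. With 50.6% of its signal in the last 3 samples it was only just selected. At 2R:17628081-17628209 on the minus strand the profile was uneven, with 2858 RPM at 18-19 h, 2510 RPM at 19-20 h, 4058 RPM at 20-21 h and then 2911 RPM at 21-22 h. The sixth, at 3R:25957498-25957518 on the minus strand and only 21 bp wide, reached a plateau, with 989.5 RPM at 18-19 h, 2567 RPM, 3872 RPM and 3916 RPM.

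**Figure D4:**
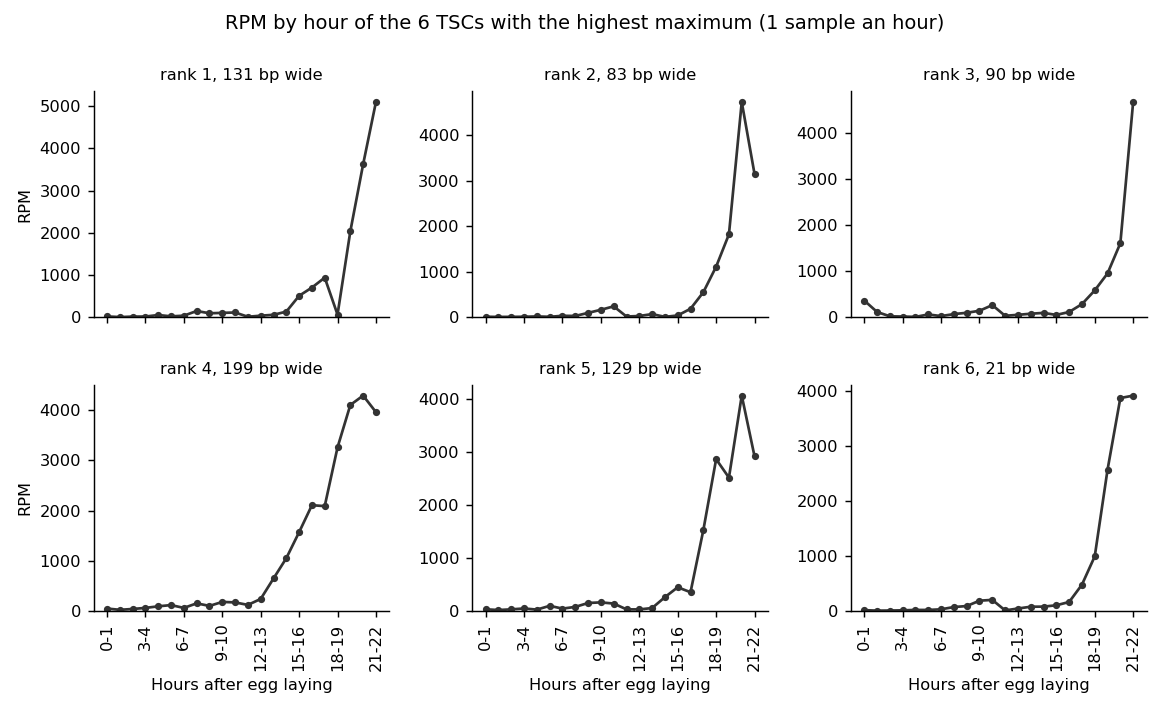
RPM in each hourly sample for the 6 TSCs with the highest maximum, 1 panel each, with 1 sample an hour and a linear axis from 0. Ranks 1 and 3 are still rising at 21-22 h, rank 6 is level, and ranks 2, 4 and 5 are below their value at 20-21 h.

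Of the 12 strongest TSCs, 6 were highest at 21-22 h, 5 at 20-21 h and 1 at 19-20 h. The last of these, at 2L:10483077-10483180 on the minus strand, held 2725 RPM at 19-20 h and then 1544 and 1294 RPM. Strength varied widely within the group. The maximum ran from 10.2 RPM to 5098 RPM with a median of 46.5 RPM (quartiles 19.0 and 165.2 RPM), and 26 TSCs reached 1000 RPM.

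Low signal was present at 7-11 h and fell before the final rise. The summed share of reads was 0.324% at 7-8 h, 0.332% at 8-9 h, 0.484% at 9-10 h and 0.649% at 10-11 h, then 0.140% at 11-12 h, a 4.62-fold drop. At 10-11 h, 136 TSCs (32.5%, 28.2 to 37.2%) were above their 11-12 h value with non-overlapping intervals and 4 were below, and the share above was 14.2% over all TSCs that reached 10 RPM. Of the 135 TSCs of at least 100 RPM, 101 showed this drop, and the share over all TSCs of that strength was not computed.

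The size of the early signal was similar between strong TSCs of the group. Among those of at least 100 RPM, the 10-11 h value was a median of 6.68% of the mean over the last 3 samples, with quartiles of 5.22% and 10.1%, and the 11-12 h value a median of 0.908%. At 3R:25957498-25957518, for example, values were 183 RPM at 9-10 h, 197.4 RPM at 10-11 h, 6.28 RPM at 11-12 h and then 40.3 RPM at 12-13 h. What gave these reads was not tested. The drop was 4.73-fold with TMM factors and 4.47-fold with DESeq2 size factors. In 96 TSCs a sample at 7-11 h reached 10% of the maximum, and 87 of these were under 10% at 11-12 h, so without the requirement that signal be sustained the median onset was 14-15 h. When the samples at 7-11 h were also left out, it was 15-16 h. The next sample, at 12-13 h, was the shallowest, and 289 of the 418 TSCs had 0 reads there, which at that depth allows up to 9.30 RPM.

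No TSC of the group was without reads in the first 12 h. The median was 92 reads over those samples, of 78719071 reads in all, and 2 TSCs had 3 or fewer.

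The TSCs of the group were narrow. Their median width was 23 bp (quartiles 14 and 43 bp, 95% order-statistic interval of the median 21 to 26 bp), against 95 bp (52 and 137 bp) for all TSCs that reached 10 RPM. A width of 25 bp or less was found for 227 TSCs, or 54.3%, against 12.6% of all TSCs, and a width of 100 bp or more for 46, or 11.0%, against 46.4%. Narrowness was shared by TSCs with most signal in other hours after 13 h, selected by the same kind of rule. The 259 TSCs with more than 50% of their signal at 13-16 h had a median width of 32 bp, the 120 with most at 16-19 h a median of 34 bp, and the 236 with most at 0-2 h a median of 92 bp. Differences between these sets were not tested.

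The authors set the bounds of TSCs from all 22 samples pooled, so a TSC with few reads has few positions to fill. Its median read number over the 22 samples was 481.5, against 1759 for all TSCs that reached 10 RPM. At matched read numbers the group's median was lower in each bin, by an amount that grew with reads. Below 100 reads the medians were 9.5 bp in the group and 14 bp over all TSCs, and with 100 to 300 reads, the bin that held the most of the group (132 TSCs), 19.5 and 29 bp. With 300 to 1000 reads, the median width was 20 bp against 73 bp. With 1000 to 3000 reads it was 30 and 90 bp, and with 3000 or more 39 and 119 bp.

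**Figure D5:**
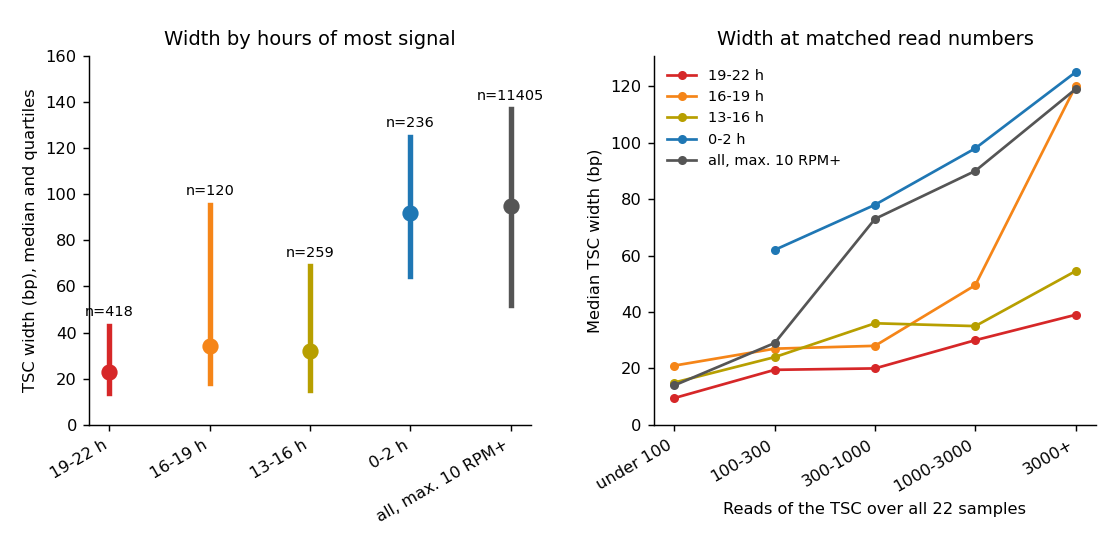
Left, median TSC width (point) and quartiles (bar) for TSCs with most signal at 19-22 h, 16-19 h, 13-16 h and 0-2 h and for all 11405 TSCs that reached 10 RPM; right, median width of the same sets by number of reads over the 22 samples. The 19-22 h set has the lowest median in every bin shown, from 9.5 bp under 100 reads to 39 bp at 3000 reads or more.

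Stronger TSCs of the group were wider. Median widths were 18.5 bp at a maximum of 10 to 25 RPM, 20 bp at 25 to 100 RPM, 30 bp at 100 to 1000 RPM and 86.5 bp at 1000 RPM or more, where all TSCs had 67, 90, 117 and 159 bp. The set at 13-16 h had 18, 33.5, 35 and 56 bp in these bins, and that at 16-19 h 28, 22, 39 and 152 bp. By strength, the set at 13-16 h was thus the narrower in the lowest and highest bins. Width differed little by highest hour, with a median of 23 bp for each of the sets highest at 19-20 h, 20-21 h and 21-22 h. TSCs with onset at 17-18 h or later or with none had a median width of 20 bp, those with onset at 15-16 h or 16-17 h one of 27 bp and those with onset before 15 h one of 27.5 bp. Their median read numbers were 409, 449 and 905, so these sets also differed in reads.

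The 3 narrowest TSCs of at least 100 RPM were 6 to 9 bp wide. At 3L:5547533-5547541 on the plus strand, 9 bp wide, signal went from 17.9 RPM at 18-19 h to 69.0, 105.6 and 170.7 RPM. Such a TSC is a narrow promoter in the sense given above. The widest on a placed chromosome arm was at 3L:6630618-6630970 on the plus strand, 353 bp wide, with 194.2 RPM at 19-20 h and then 554.4 RPM at both 20-21 h and 21-22 h. A wider one of 496 bp lay on unplaced sequence of 3L and reached 356.2 RPM.

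The authors assigned 359 of the 418 TSCs to genes and left 59 unassigned. The unassigned share was 14.1% (11.1 to 17.8%), against 18.6% (17.9 to 19.3%) of all TSCs that reached 10 RPM. On placed chromosomes it was 7.71% (5.46 to 10.8%), or 30 of 389, against 10.4% (9.79 to 11.0%). All 29 TSCs on unplaced sequence were unassigned, as were all those on unplaced sequence that reached 10 RPM. The sets at 13-16 h, 16-19 h and 0-2 h had 21.2%, 14.2% and 11.4% unassigned, and differences between sets were not tested. The median width was 24 bp for unassigned and 23 bp for assigned TSCs of the group.

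Of the unassigned TSCs 17 exceeded 100 RPM, 5 of them on placed chromosomes. The strongest, at 2R:18203813-18203849 on the minus strand, read 375.8 RPM at 18-19 h, 1298 RPM at 19-20 h, 2502 RPM at 20-21 h and then 1973 RPM at 21-22 h. It lay 745 bp from a gene-assigned TSC of the group that is transcribed away from it, at 2R:18204594-18204638 on the plus strand, with 284.1, 1387, 2566 and 1574 RPM in these samples. Both rose and turned down in the same hours. The next, at 3R:5110121-5110184 on the plus strand, read 456.5, 1104, 2026 and 1781 RPM and lay 180 bp from a divergent gene-assigned TSC of the group with a maximum of 219.6 RPM.

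The TSC at X:12998803-12998857 on the plus strand lay 11030 bp from the nearest gene-assigned TSC of at least 10 RPM. It held 526.1, 506.6, 714.6 and 747.6 RPM from 18-19 h on. Weaker unassigned TSCs at 2R:17559060-17559073 and 3R:8522118-8522139, both on the minus strand, were highest at 19-20 h with 338.3 and 155.3 RPM. Over the 30 on placed chromosomes, the gap to the nearest gene-assigned TSC of at least 10 RPM had a median of 3464 bp. It was within 1 kb for 8, of which 4 were divergent, and over 5 kb for 12.

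TSCs of the group also lay next to each other along the chromosomes. Within 5 kb, 120 of the 418 TSCs (28.7%) had another TSC of the group, at another position, from another gene or from none, and 317 of the 10987 other TSCs of at least 10 RPM (2.89%) had one. The same count within other sets was 38 of 259 (14.7%) for 13-16 h, 21 of 120 (17.5%) for 16-19 h and 17 of 236 (7.20%) for 0-2 h, where smaller sets leave fewer possible neighbours. With each position counted once, 132 TSCs lay in 56 groups of neighbours, 45 of them pairs and the largest with 5 TSCs. How reads mapping to several places were counted is not given in the sources used here, so values of similar neighbouring genes may share reads.

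A group of 5 TSCs spanned 11533 bp at 2R:12671369-12682901. All 5 had onset at 16-17 h, but their maxima ran from 16.4 RPM to 1259 RPM. The strongest, at 2R:12673499-12673521 on the minus strand, read 773.7 RPM at 18-19 h, 635.2 RPM, 1048 RPM and 1259 RPM. The 2 weakest were lower at 21-22 h than at 20-21 h, with 12.3 after 16.7 RPM and 6.68 after 15.5 RPM, while the other 3 were higher by value.

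Another group of 5 spanned 8195 bp at 2L:13602568-13610762, and all of its TSCs were highest at 21-22 h. Their maxima were 19.0, 177.4, 51.3, 46.7 and 12.3 RPM from left to right, and their onsets ran from 16-17 h to 19-20 h. A group of 4 on the minus strand at 2L:4806043-4810628 held the second strongest TSC of the whole group, described above, and at its other end the TSC at 2L:4810476-4810628, which read 611.6, 1257, 3155 and 3600 RPM from 18-19 h on. These neighbours differed at the last hour, since one fell to a ratio of 0.665 and the other rose to one of 1.14.

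The 359 assigned TSCs belonged to 346 genes, of which 13 had 2 TSCs in the group and none had more. For 252 genes the TSC of the group was the only one listed under that gene number. Another TSC of at least 10 RPM was present in 54 genes (15.6%), with 77 such TSCs in all, of which 29 were highest before 12 h, 35 between 12 h and 19 h and 13 from 19 h on. TSCs of the group supplied over 90% of their gene's reads at 19-22 h in 303 genes and under 50% in 22. In the 54 genes the TSCs of the group had a median width of 28 bp and the 77 others one of 89 bp.

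Some of these genes had an early and a late promoter. At 3L:8497576-8497659 on the minus strand (gene number FBgn0184667), signal was at most 11.0 RPM up to 12-13 h and 119.1, 119.8 and 121.6 RPM in the last 3 samples. The gene's other TSC, 3273 bp away at 3L:8494303-8494628 and 326 bp wide, held 2981 RPM at 0-1 h, 596.9 RPM at 2-3 h and then 20.4 RPM at 21-22 h. In a further gene, the TSC of the group at 3R:18852711-18852732 reached 69.2 RPM at 21-22 h, while the other, 7520 bp away, held 884.6 RPM at 1-2 h, 5.71 RPM at 5-6 h and then 132.4 RPM at 21-22 h, above the TSC of the group. In another gene, the TSC at 3L:3626970-3627072 was a minor start site throughout: it read 161.3 RPM at 21-22 h beside 5265 RPM from a TSC 1577 bp away, which had reached 25914 RPM at 12-13 h.

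The group was spread over all major chromosome arms. It held 65 TSCs on 2L, 86 on 2R, 98 on 3L, 91 on 3R, 48 on X and 1 on chromosome 4. These are between 3.42% and 4.45% of the TSCs of at least 10 RPM on each of the 5 large arms, and 216 TSCs lay on the plus strand.

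A smooth dependence on hour was tested over the whole list by limma, with a spline of hour on log2(RPM + 1), although for these TSCs it restates the rule that selected them. Of the 20118 TSCs tested, 82.1% passed at a Benjamini-Hochberg adjusted p of 0.05, and 417 of the 418 were among them. The exception, at 3L:10958049-10958053 on the plus strand with a limma adjusted p of 0.081, rested on 1 sample: it held 14.7 RPM at 20-21 h and 0 reads at 19-20 h and 21-22 h. The scatter of hourly samples around the spline was larger in the group, with a median residual SD of 0.71 on the log2 scale against 0.60 over all TSCs that reached 10 RPM and 0.57 over all TSCs tested. The group was selected on these values, so this difference only describes it, and misfit of the spline was not separated from scatter.

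The limits of the rule passed through a continuum of profiles. Just inside 50%, the TSC at 3L:4011843-4011858 had 50.1% of its signal in the last 3 samples, and just outside, that at 3R:21577824-21577911 had 49.9%. Within 5 percentage points of the limit lay 92 TSCs inside and 103 outside. At the other limit, a TSC on unplaced sequence with 10.2 RPM was inside and one at 3R:4391401-4391412 with 9.84 RPM outside. The share in the last 3 samples had a median of 63.2% (quartiles 56.0 and 73.0%) and a highest value of 89.5%, and the samples at 16-19 h held a median of 21.3% of the summed RPM.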

How the data were processed

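Per the labels and the study's methods, reads were aligned by the authors to FlyBase release r1.4 using STAR, and TSCs were found by a custom peak caller run once on all 22 samples combined, without rDNA peaks. They deposited a TSC list with positions and a whole-number peak score of unstated meaning, and tables of RPM per TSC and per gene. The deposited aligned table of scores smoothed for comparison between species was not used. RPM values in each sample were whole multiples of 1 read within 0.1 reads for 100% of values, which gave the reads and depths used for 95% Wilson intervals. The members and lists were chosen with earlier results of these data known.

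Onset, highest hour, width and assignment were computed with Python 3.11.15, and the median onset counts TSCs with none as later than the last hour. limma 3.58.1 (trend) in R 4.3.3 fitted a natural cubic spline with 4 degrees of freedom to log2(RPM + 1) for TSCs that reached 2 RPM. The deposited unit being RPM, edgeR 4.0.16 on the recovered reads, TMM and DESeq2 1.42.0 size factors were alternatives. Scripts were tested on simulated data. Named TSCs were the 12 strongest, the 6 strongest unassigned on placed chromosomes, the 3 earliest, latest, widest and narrowest of at least 100 RPM, the densest groups of neighbours and the genes with the strongest other TSC. Ties were broken by the last ratio for the latest onsets and by the maximum for the earliest, and by the maximum among groups of neighbours, the last chosen after the values were seen. Their genes could not be paired with names (the RefSeq table given, of another assembly, matched none), and sequences were not used here. The gene table uses other gene numbers: for 210 of the 346 genes (60.7%) its 22 read counts equalled those of 1 gene of the TSC list. Its values were not otherwise used.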

Additional observations from a re-analysis of the deposited data

How the results depend on the processing

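Only 1 sample was measured per hour, so no choice below gives an error across replicates. The counts in this paragraph come from TSCs selected again under each choice. The onsets and last-sample shares further below were recomputed on the 418 TSCs or a part of them, apart from the onset with no minimum of RPM. The group of 418 TSCs became 658, 252, 127 and 48 with more than 40%, 60%, 70% and 80% of signal at 19-22 h, and 276 and 135 with maxima of at least 25 and 100 RPM. Leaving out each sample in turn gave between 231 (without 20-21 h) and 546 (without 18-19 h) TSCs. It was 260 without 19-20 h and 240 without 21-22 h. TMM and DESeq2 factors gave 498 and 556 TSCs, including 416 and 414 of the 418. Thinning to the shallowest depth gave 473 TSCs, including 353 of the 418.

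The median onset of 16 h (start of the hour) became 15, 18 and 19 h at 5%, 25% and 50% of the maximum, 14 h when not sustained, 15 h when not sustained and without the samples at 7-11 h (chosen after seeing the data), and 17 h with the Wilson lower bound or with no minimum of RPM. The share highest at 21-22 h, 45.2%, was 57.9% with TMM factors, 51.9% at 100 RPM or more and 38.3% after thinning to the shallowest depth. The share above 20-21 h beyond counting error, 19.9%, was 27.5% with TMM factors, 25.7% and 37.0% at 25 and 100 RPM or more, and 5.26% after thinning, which removes reads and widens intervals.

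The median width of 23 bp was 20 and 16 bp at more than 70% and 80%, 20 and 32 bp at maxima of at least 5 and 100 RPM, and, chosen after seeing the data, 27.5 and 34 bp for TSCs with at least 300 and 1000 reads. The unassigned share of 14.1% was 7.71% on placed chromosomes only. The limma count of 16524 TSCs was 10748 when only the 11405 TSCs of at least 10 RPM were tested, and 15925 (without 1-2 h) to 17012 (without 12-13 h) with a sample left out. Counting each position once (chosen after seeing the data) left 414 TSCs with a median onset of 16 h, a median width of 23 bp and 14.2% unassigned, of which 45.7% were highest at 21-22 h and 20.1% rose beyond counting error. In all, 39 of 67 alternatives other than leaving out a sample kept a count within 1.5 times or a median or share within its 95% interval. No paired analysis was possible because each hour has 1 sample.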
